A study of Oryza sativa Japonica Group with 12 samples.

Results

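Gene expression was compared between the rice lines ‘CH8’ and ‘CH7’, both of them parents of a hybrid that grows weakly, on the 4 Affymetrix GeneChip arrays of these lines out of 12 in the series. The arrays were chosen by their titles, 2 for each line, and the values were the deposited intensities on the log2 scale. Of 54922 probe sets on the array, 24080 carried 1 listed gene, and these stood for 23837 genes. ‘CH7’ is the temperate *japonica* variety Aranghyangchalbyeo, an aromatic, waxy rice with a white pericarp. ‘CH8’ is Sanghaehyangheolua, also *japonica*, aromatic and waxy, with a purple pericarp. ‘CH9’, Shinseonchalbyeo, is waxy with a white pericarp, and its 2 arrays served only to show on which side another line lay. The remaining 6 arrays, 2 for each F1 of a parent pair (‘CH7/8’, ‘CH7/9’ and ‘CH8/9’), entered only the estimate of the spread. RNA came from whole plants at tillering, untreated and grown in a greenhouse, each from its own plant. The 3 parents carry different hybrid weakness genes. Each genotype was a single variety, so the traits that separate ‘CH8’ from ‘CH7’ cannot be told apart as sources of a difference.

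Whole-plant RNA mixes leaf, stem and root, so a level depends on the makeup of the plant as well as on each cell. Cellulose, spun out by synthase complexes at the plasma membrane, and xylan form most of a grass cell wall. Abscisic acid (ABA) restrains growth and induces protective proteins through SnRK2 kinases, which type 2C protein phosphatases (PP2Cs) hold in check. Grasses take up iron with secreted mugineic acids, and a further set of carriers moves zinc, potassium, ammonium and phosphate.

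A probe set was called when the adjusted p of the limma fit over all 12 arrays was at most 0.05 (Benjamini-Hochberg over all probe sets) and the change was at least 2-fold. The replicates differed in how closely they matched. Between the 2 arrays of a line, 1314 probe sets differed at least 2-fold in ‘CH7’, 2973 in ‘CH8’ and 1554 in ‘CH9’. Over all probe sets, which are not independent replicates, the ‘CH7’ arrays correlated at 0.983 and the ‘CH8’ arrays at 0.969. The first ‘CH8’ array stood nearer to the second ‘CH7/8’ array (0.981) than to its own replicate, and the 4 correlations between ‘CH7’ and ‘CH8’ arrays lay between 0.933 and 0.945. The arrays do not show whether a difference comes from fewer cells of a type or from less RNA per cell, nor whether it comes from transcript level or from bases that differ between a line and the probe, and these cannot be told apart here.

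Of 23837 genes, 673 (2.82%) were higher in ‘CH8’ and 639 (2.68%) were lower. Both ‘CH8’ arrays lay above both ‘CH7’ arrays at 5745 genes (24.1%) and below them at 7680 (32.2%), and the median difference of all genes, ‘CH8’ minus ‘CH7’, was -0.04 on the log2 scale. Genes with a name were called higher more often than lower, 112 against 56 of 2701 (4.15% and 2.07%). So were the 2073 genes in at least 1 list, at 4.58% and 2.03%. The median intensities of these sets, 40.7 and 34.1, were above the 24.5 of all genes. The share of higher calls in a list is therefore set against a low share where all genes are used. The calls depended on single arrays. With the first ‘CH7’ array left out, 137 genes were called higher and 93 lower, and with the second left out 287 and 281. Without the first ‘CH8’ array the counts were 684 and 468, and without the second 373 and 177. Of the 1312 genes called, 196 kept their call whichever of these 4 arrays was left out, and 403 lost it each time. Leaving out an array also left that line with 1 array, assumed to vary like the other lines. Among the 170 called genes named by rule below, no difference changed sign in any alternative. Where the lines did not overlap, leaving out an array could not change the sign, so this is no separate support. Calls were made on the gap between the lines, so a gap at a called gene below is no separate support either. Below, each group of genes is given with the number of its calls that held without each of the 4 arrays, in the order first and second ‘CH7’ array, first and second ‘CH8’ array.

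**Figure D1:**
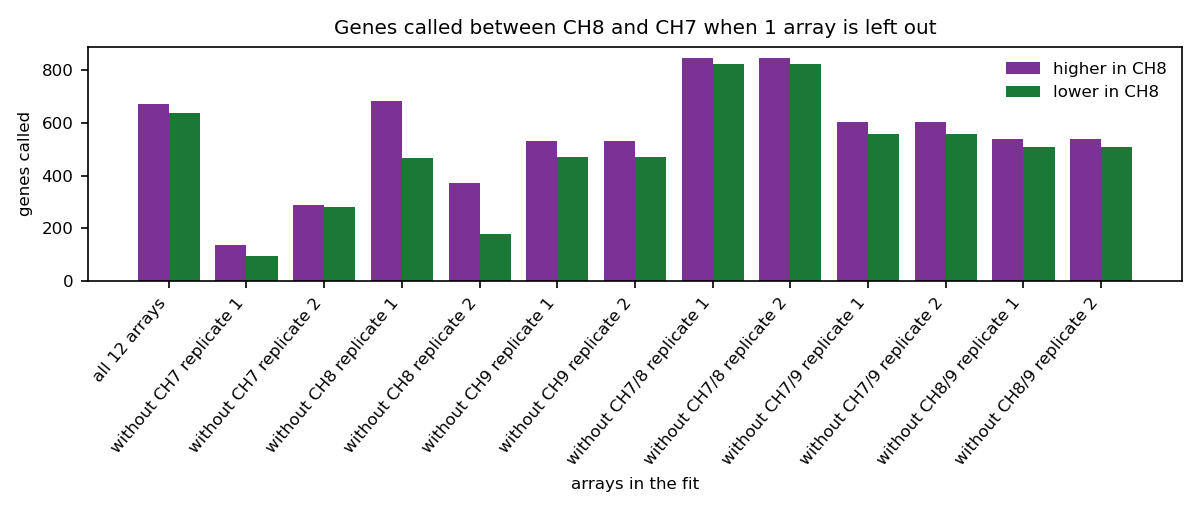
Number of genes (vertical axis) called higher (purple) or lower (green) in ‘CH8’ than in ‘CH7’ with all 12 arrays and with each array left out in turn. The counts were smallest without the first ‘CH7’ array, 137 and 93, and largest without either ‘CH7/8’ array, 846 and 825.

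Cellulose synthases made up the group with the largest share of calls among the groups of at least 10 genes. Of 17 measured synthases and COBRA-like proteins, which order cellulose in the wall, 7 were higher in ‘CH8’ and 1 was lower, with a median difference of 1.21 on the log2 scale against -0.04 over all genes. Synthases of both the primary and the secondary wall were among them. *CESA4*, *CESA7* and *CESA9* encode the rice secondary wall complex. *CESA4* read 27.0 and 17.3 on the ‘CH7’ arrays and 291 and 378 on the ‘CH8’ arrays, a log2 difference of 3.94 (SE 0.48, limma adjusted p = 0.00429). *CESA9* read 7.76 and 7.0 against 73.2 and 53.3 (3.08, SE 0.41, limma adjusted p = 0.00613). *CESA7* was dimmer, at 9.94 and 8.00 against 33.0 and 27.3 (1.75, SE 0.38, limma adjusted p = 0.0366). With log2(value + 16) the *CESA7* difference was 0.88 and its call was lost. None of these ‘CH7’ readings reached the lowest ‘CH8’ reading of the same gene, which choosing genes by their call makes likely. The primary wall synthases *CESA1*, *CESA6* and *CESA8* were already well expressed in ‘CH7’. *CESA1* rose from 110 and 120 to 355 on both arrays (1.63, SE 0.19, limma adjusted p = 0.00386) and *CESA8* from 43.8 and 52.5 to 204 and 217 (2.14, SE 0.21, limma adjusted p = 0.00147). *CESA6* read 41.8 and 31.1 against 174 and 126 (2.03, SE 0.44, limma adjusted p = 0.0356). *BC1L6*, a COBRA-like gene, went the other way, from 121 and 119 to 32.3 and 48.2 (-1.61, SE 0.33, limma adjusted p = 0.0308), and its ‘CH9’ arrays, 136 and 137, sat with ‘CH7’. Of the 8 calls, 3, 4, 5 and 4 held without the respective arrays, and *CESA4*, *CESA1* and *CESA8* kept theirs each time.

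Other wall genes moved in smaller numbers. Of 25 cellulose synthase-like genes 2 were higher and none was lower. *CSLF6*, the synthase of mixed-linkage glucan, read 31.2 and 24.1 in ‘CH7’ and 188 and 153 in ‘CH8’ (2.63, SE 0.42, limma adjusted p = 0.0127), a clear gap between the lines. *CSLC2*, of the family that makes the xyloglucan backbone, had a narrower gap, with 76.2 and 107 against 178 and 286 (1.32, limma adjusted p = 0.0257). Of 27 genes of xylan synthesis and acetylation, 5 were higher and none lower, and 4 of the 5 were TBL genes, a family with acetyltransferases of xylan. *TBL5* read 39.2 and 37.1 against 139 and 97.3 (1.61, limma adjusted p = 0.0127). These xylan calls were fragile: 0, 0, 2 and 2 held without the respective arrays. Of the cellulose synthase-like calls 0, 0, 2 and 0 held.

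Calls were also made among wall-loosening and wall-cutting enzymes. The gene annotated as *cellulase* read 19.7 and 18.7 in ‘CH7’ and 89.7 and 84.4 in ‘CH8’ (2.18, SE 0.18, limma adjusted p = 0.000588). The endoglucanase *GLU2* read 97.6 and 110 against 372 and 345 (1.79, SE 0.16, limma adjusted p = 0.000955). In both genes the replicates were close and the lines far apart. *XTH8*, which cuts and rejoins xyloglucan, read 73.1 and 132 against 255 and 322 (1.55, limma adjusted p = 0.0271), and *PMEI28*, an inhibitor of pectin methylesterase, fell from 48.2 and 41.8 to 14.7 and 11.9 (-1.76, limma adjusted p = 0.0339). In all, 3 of 23 glucanases, pectin enzymes and other hydrolases were higher and 1 was lower, and 2, 3, 2 and 2 of these calls held without the respective arrays. Of 31 beta-glucosidases, 3 were higher and 1 lower, led by *BGLU28* with 43.7 and 56.6 against 248 and 286 (2.42, SE 0.25, limma adjusted p = 0.0017), and 1, 2, 3 and 3 calls held. The expansins, which loosen walls without cutting them, gave 2 calls of 45, both higher (4.44%, against 2.82% of all genes). *EXLA2* read 43.3 and 62.7 against 297 and 295 (2.50, SE 0.25, limma adjusted p = 0.0017). At 22 of 45 expansins (48.9%, against 24.1% of all genes) both ‘CH8’ arrays lay above both ‘CH7’ arrays. Their summed intensity was 582 and 674 in ‘CH7’, 1810 and 1053 in ‘CH8’ and 1076 and 1083 in ‘CH9’. The first ‘CH8’ array stood highest, with 12 expansins at least 2-fold above the second ‘CH8’ array and 1 the other way. No laccase of 12 and 1 of 27 lignin and phenylpropanoid genes was called: *CAD8C*, of the cinnamyl alcohol dehydrogenase family, read 5.45 and 7.95 against 2.97 and 2.61 (-1.24, limma adjusted p = 0.0309) and lost its call whichever of the 4 arrays was left out. All 4 *CAD8C* readings were near the lowest on the arrays, and with log2(value + 16) the difference was -0.27.

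**Figure D2:**
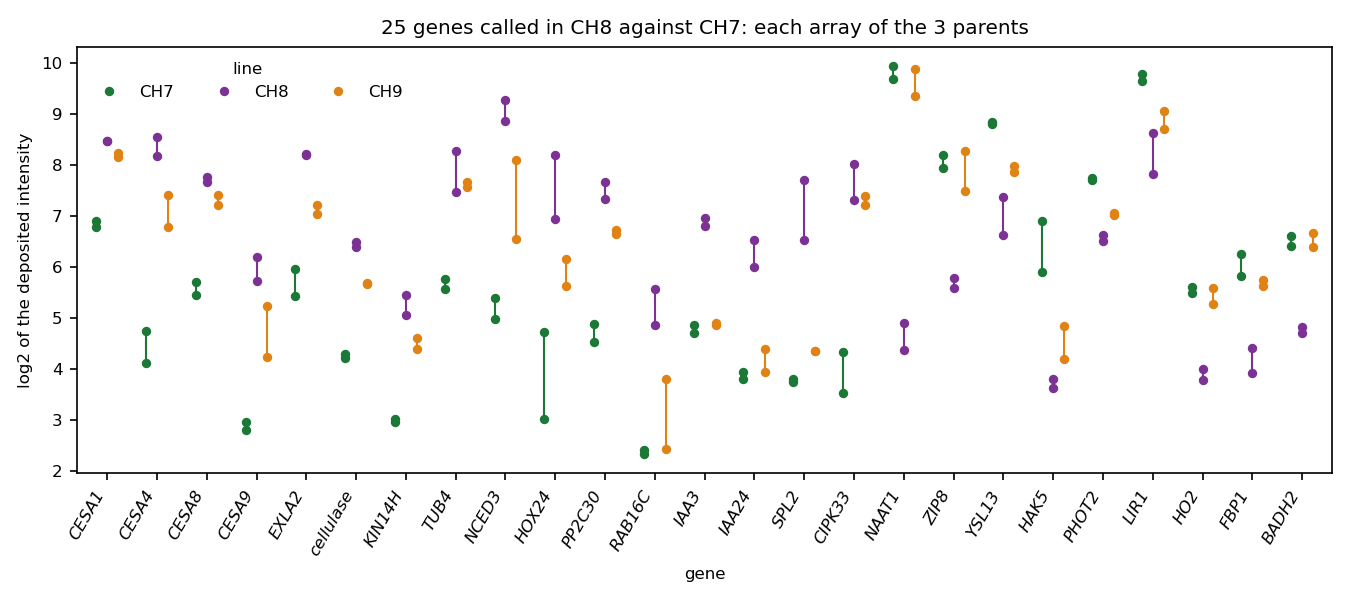
Deposited intensity on the log2 scale (vertical axis) of 25 genes called between ‘CH8’ and ‘CH7’, with a point for each array of ‘CH7’ (green), ‘CH8’ (purple) and ‘CH9’ (orange) and a line joining the 2 arrays of a line. *CESA4* sits at 27.0 and 17.3 in ‘CH7’ and 291 and 378 in ‘CH8’ as linear values, and *NAAT1* drops from 981 and 828 to 20.8 and 30.

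Kinesins carry cargo along or take apart microtubules, and 4 of 39 were higher in ‘CH8’ and none lower, with a median of 0.38. *KIN14H* read 7.79 and 8.16 in ‘CH7’ and 43.8 and 33.6 in ‘CH8’ (2.27, SE 0.17, limma adjusted p = 0.000461). *KIN8B* read 61.8 and 59.7 against 291 and 205 (2.01, limma adjusted p = 0.0294), and *KIN7K* 31.6 and 36.4 against 144 and 89.6 (1.75, limma adjusted p = 0.0405). The 4 kinesins were well separated between the lines, but 1, 1, 2 and 1 of the calls held without the respective arrays. Of 49 tubulins, actins and formins 2 were higher. *TUB4*, a beta-tubulin, read 47.4 and 54.2 against 311 and 178 (2.21, SE 0.38, limma adjusted p = 0.0160), and *ARP3*, a subunit of the complex that branches actin filaments, 25.3 and 36.3 against 74.2 and 60.2 (1.14, limma adjusted p = 0.0489). Of these calls only that of *TUB4* without the second ‘CH8’ array held. The actin gene *ACT1*, often used as a constant reference, read 687 and 636 in ‘CH7’ and 1084 and 709 in ‘CH8’ (0.41, limma adjusted p = 0.31). Cell division genes gave few calls: 4% of cyclins and their kinases were higher and 5.88% of DNA replication genes lower. Over all genes the shares were 2.82% higher and 2.68% lower. Of 50 cyclins and cyclin-dependent kinases, counted with their inhibitors, the 2 called were *SMR1* (27.5 and 50.7 against 106 and 151, limma adjusted p = 0.0432) and *KRP6* (3.58 and 2.42 against 11.2 and 8.74, limma adjusted p = 0.0159), both higher and both inhibitors of these kinases, and both calls were lost whichever of the 4 arrays was left out. With log2(value + 16) the difference of the dim *KRP6* was 0.45. Of 34 DNA replication genes none was higher and 2 were lower, *GYRB*, a gyrase subunit, and *FAS2*, a chromatin assembly subunit, by -1.30 and -1.03 (limma adjusted p = 0.0142 and 0.0393), of which 0, 1, 2 and 0 held.

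ABA synthesis gave 1 call of 7 genes, *NCED3*, the dioxygenase that commits carotenoid to ABA, with 41.9 and 31.7 in ‘CH7’ and 621 and 469 in ‘CH8’ (3.89, SE 0.62, limma adjusted p = 0.0128). Its call was lost without the first ‘CH7’ array (adjusted p = 0.0813), the second (0.0705) or the second ‘CH8’ array (0.0525). *PSY3*, a phytoene synthase that feeds carotenoid into this route, read 34.2 and 49.5 against 298 and 278 (2.81, SE 0.55, limma adjusted p = 0.0257). *MHZ4*, a further gene of ABA synthesis known from the ethylene response of rice roots, read 62.7 and 75.1 against 205 and 307 (1.87, limma adjusted p = 0.0251). The *PSY3* call was lost whichever of the 4 arrays was left out, and that of *MHZ4* held only without the first ‘CH8’ array. *ABA8OX1*, an enzyme that breaks ABA down, read 399 and 378 in ‘CH7’ against 347 and 251 in ‘CH8’ (-0.39, limma adjusted p = 0.386).

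Of 42 genes of ABA signalling and response, 11 (26.2%) were higher and 1 was lower. The shares were 2.82% and 2.68% over all genes, and 4.58% and 2.03% over genes in at least 1 list. At 26 (61.9%, against 24.1% of all genes) both ‘CH8’ arrays lay above both ‘CH7’ arrays. The median difference was 1.03. Among the regulators, *PP2C30* read 23.1 and 29.7 in ‘CH7’ and 161 and 203 in ‘CH8’ (2.79, SE 0.36, limma adjusted p = 0.00551), *OsPP2C09* 83.6 and 138 against 382 and 398 (1.86, limma adjusted p = 0.0226), and *PP2C50* 46.1 and 57.3 against 177 and 181 (1.80, limma adjusted p = 0.0385). The kinase *SAPK10*, a SnRK2, read 61.0 and 69.4 against 160 and 132 (1.16, limma adjusted p = 0.0111). So some phosphatases that restrain the pathway and 1 kinase that drives it were higher. *SAPK10* was the only call among 26 SnRK1 and osmotic stress kinases (3.85%, near the 2.82% of all genes), whose median was 0.04. Its call was lost with log2(value + 16) and in a fit of only the 4 arrays of these lines. *HOX24* and *Hox22* encode homeodomain factors induced by ABA and drought. *Hox22* read 15.5 and 16.6 against 48.5 and 65.4 (1.81, SE 0.22, limma adjusted p = 0.00441), and *HOX24* 8.15 and 26.4 against 123 and 295 (3.70, SE 0.63, limma adjusted p = 0.0154). The protective proteins were dim in ‘CH7’. *RAB16C*, a dehydrin, read 5.05 and 5.33 against 29 and 47.7 (2.84, SE 0.46, limma adjusted p = 0.0130), and *EM*, a late embryogenesis protein, 4.97 and 5.07 against 22.5 and 120 (3.37, SE 0.64, limma adjusted p = 0.0242). The ‘CH8’ arrays of *EM* differed from each other by more than either ‘CH7’ array did from the other. *BURP4* was the member that was lower, from 23.7 and 11.5 to 5.17 and 6.66 (-1.49, limma adjusted p = 0.0398). Of the 12 calls 1, 6, 7 and 4 held without the respective arrays, and *Hox22* alone kept its call each time. Over the whole PP2C family, which is larger than the ABA branch, 4 of 59 were higher and 1 was lower with a median of 0.10, and 0, 4, 2 and 2 calls held.

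Aux/IAA proteins repress auxin response factors (ARFs) until auxin has them degraded. Of 57 auxin signalling genes 8 (14%) were higher in ‘CH8’ and none lower, and all but *ARF15* among the 8 were Aux/IAA genes. *IAA3* read 29.1 and 26.0 in ‘CH7’ and 112 and 125 in ‘CH8’ (2.10, SE 0.19, limma adjusted p = 0.000968), while ‘CH9’ read 29 and 30, apart from ‘CH8’ (limma adjusted p = 0.00147) and within the ‘CH7’ range of readings or just above it. *IAA24* read 13.9 and 15.3 against 63.7 and 93.1 (2.40, SE 0.38, limma adjusted p = 0.0127), and *IAA9* 5.17 and 6.09 against 24.3 and 101 (3.14, SE 0.52, limma adjusted p = 0.0140). *ARF15* read 38.4 and 55.0 against 125 and 148 (1.57, SE 0.21, limma adjusted p = 0.00589). Of these calls 1, 3, 7 and 4 held without the respective arrays, and that of *IAA3* held each time. Auxin synthesis and transport gave no call among 20 genes, with a median of 0.06.

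Several transcription factor families had members that were higher. Of 60 homeobox genes 9 (15%) were higher and none lower, although the median of the family was 0.09. Besides the ABA-linked pair they included *HOX12* (15.9 and 11.1 in ‘CH7’, 48.4 and 66.3 in ‘CH8’, difference 2.09, limma adjusted p = 0.0107), *HOS66* (14.7 and 10.5 against 53.1 and 175, 2.95, limma adjusted p = 0.0326) and *WOX11*, a regulator of crown root growth (21 and 24.9 against 45.4 and 54.4, 1.12, limma adjusted p = 0.0450). Of the 9 calls 2, 3, 6 and 1 held without the respective arrays. *SPL2*, a member of the SPL family whose relatives set tillering and panicle branching, read 13.4 and 14 against 92.7 and 208 (3.34, SE 0.38, limma adjusted p = 0.00319). ‘CH9’ read 20.4 on both arrays, and the call of *SPL2* held without each of the 4 arrays. It was the 1 call among 13 SPL genes. *RS2*, related to the maize factor that keeps leaf cells from reverting to stem fate, read 7.98 and 7.17 against 52.0 and 31.5 (2.42, SE 0.31, limma adjusted p = 0.00528) and also held each time. In the NF-Y, GRF, YABBY, DOF and TCP group of 39, *PCF7* (TCP) and *DOF5* were higher by 3.30 and 2.05 and *HAP5C* (NF-Y) was lower, from 141 and 123 to 28.5 and 24.6 (-2.32, limma adjusted p = 0.0127), and 1, 0, 2 and 1 calls held. No call was made among 31 MADS-box, 18 bHLH, 12 MYB or 6 WRKY genes. Over all genes 2.82% were called higher and 2.68% lower, so no call in lists this short says little. Both ‘CH8’ arrays lay above both ‘CH7’ arrays at 10 bHLH genes (55.6%, against 24.1% of all genes) and below at 1. At 7 MYB genes (58.3%, against 32.2%) they lay below, and at 2 above.

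The other hormones gave at most 3 calls each. Ethylene had 3 of 16 higher, counting *MHZ4*, a share of 18.8% against 2.82% of all genes. The median of the ethylene list was 0.00. *ACS1*, which makes the ethylene precursor, read 17.8 and 26.9 in ‘CH7’ and 90.3 and 417 in ‘CH8’ (3.15, SE 0.58, limma adjusted p = 0.0209), with a wide gap between the ‘CH8’ arrays. The receptor gene *ETR2* read 20.2 and 27.4 against 49.5 and 45.8 (1.02, limma adjusted p = 0.0354). Of the ethylene calls 0, 0, 2 and 1 held. Brassinosteroids had 2 of 23 higher (8.7%). The receptor kinase *BRI1* read 51.5 and 44.7 against 107 and 185 (1.55, limma adjusted p = 0.0160), and *CYP734A6*, which inactivates the hormone, 10.9 and 8.73 against 25.4 and 51.4 (1.89, limma adjusted p = 0.0286). A receptor and an inactivating enzyme were thus higher together, and 0, 0, 2 and 0 of these calls held. In jasmonate synthesis and signalling *AOS3* and *LOX5* were higher and *LOX9* lower among 41 genes, with 0, 2, 2 and 0 calls held. No gibberellin gene of 21 was called. Of 41 cytokinin genes only *LOGL7*, of the family that releases active cytokinin, was higher (1.63, limma adjusted p = 0.0304), a call that held only without the first ‘CH8’ array.

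CBL proteins sense calcium and switch on CIPK kinases. Of 37 measured genes 3 were higher and none lower. *CIPK33* read 11.6 and 20.2 in ‘CH7’ and 159 and 259 in ‘CH8’ (3.73, SE 0.31, limma adjusted p = 0.000669). Its ‘CH9’ arrays, 149 and 168, differed from ‘CH7’ (limma adjusted p = 0.00232) and lay next to the ‘CH8’ readings. *CIPK18* read 24.5 and 16.8 against 131 and 65.6 (2.19, limma adjusted p = 0.0342), and *CBL10*, a sensor known for salt tolerance in Arabidopsis, 91.1 and 141 against 259 and 360 (1.43, limma adjusted p = 0.0191). Of the 3 calls 1, 2, 2 and 1 held. Calcium-dependent kinases (26 genes), calmodulins and their relatives (28) and MAP kinases (16) gave no call.

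**Figure D3:**
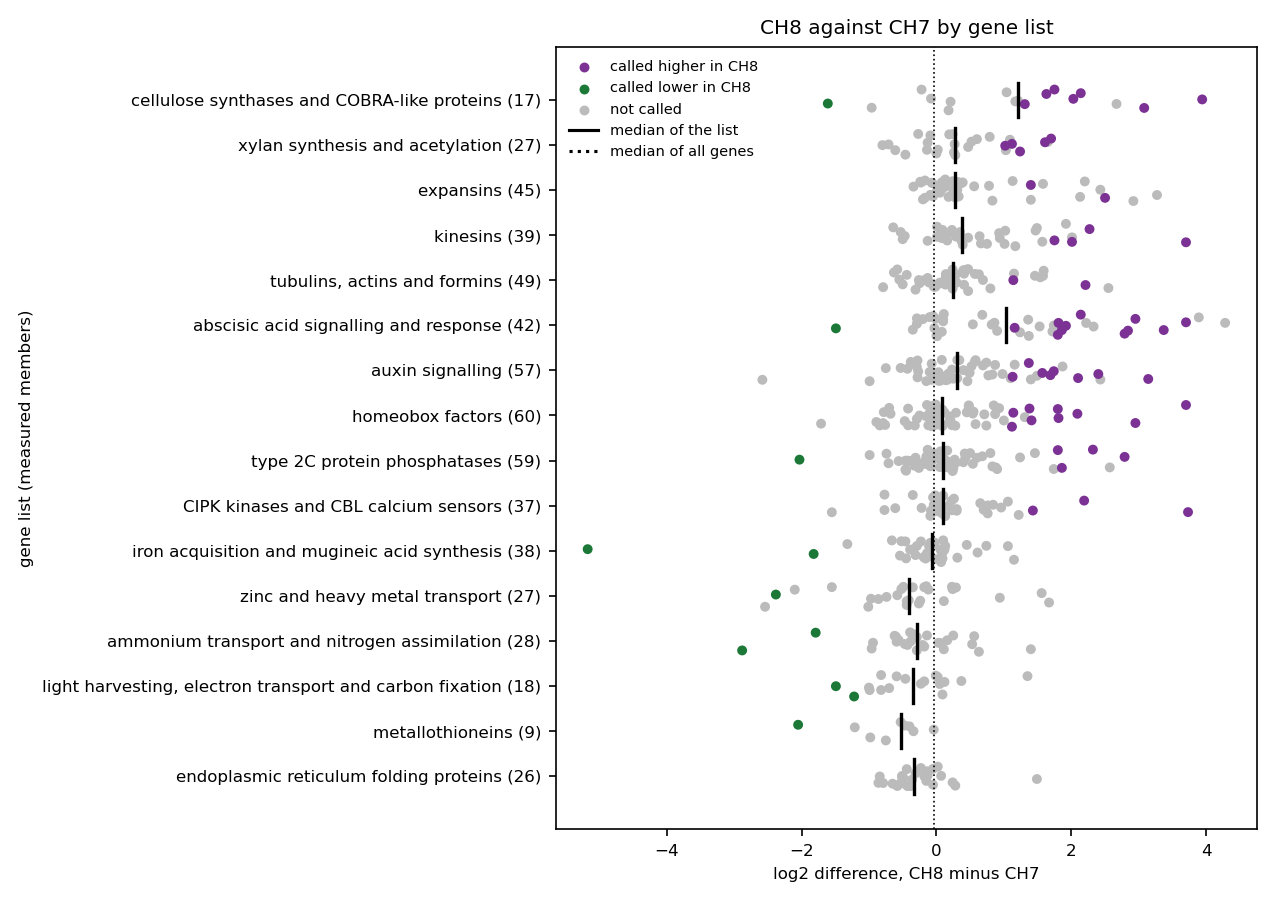
Log2 difference, ‘CH8’ minus ‘CH7’ (horizontal axis), of every measured gene in 16 gene lists (vertical axis), with calls in purple (higher) or green (lower), black bars at the list medians and a dotted line at the median of all genes, -0.04. The cellulose synthase list has its median at 1.21 and ABA signalling at 1.03, while zinc transport has it at -0.41 and metallothioneins at -0.53.

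Genes of mineral nutrition gave few calls in each list, lower in ‘CH8’ with 1 exception. Over all genes 2.68% were lower, and the share of the zinc list below, 3.7%, was near that. Of 38 genes of iron acquisition 2 were lower and none higher. *NAAT1*, the aminotransferase on the way to mugineic acids, read 981 and 828 in ‘CH7’ and 20.8 and 30 in ‘CH8’, 36.1-fold lower (-5.17, SE 0.54, limma adjusted p = 0.00197). ‘CH9’ read 654 and 952 and differed from ‘CH8’ (limma adjusted p = 0.00325), so that among the parents ‘CH8’ alone was dim. *YSL13*, a metal chelate carrier of the yellow stripe-like family, read 459 and 446 against 99.6 and 165 (-1.82, SE 0.40, limma adjusted p = 0.0385). The median of the iron list was -0.06, close to that of all genes, and the *NAAT1* call held without each of the 4 arrays whereas that of *YSL13* was lost each time. *ZIP8*, a zinc carrier, read 294 and 246 against 48.1 and 55.3 (-2.38, SE 0.43, limma adjusted p = 0.0198). It was the 1 call among 27 zinc and heavy metal genes, whose median was -0.41, and it too was lost each time. Among 9 metallothioneins, small proteins that bind metals, every difference was below 0, from -2.05 to -0.04, and *MT-1* was called, with 170 and 149 against 31.3 and 47.0 (limma adjusted p = 0.0146), a call that held only without the second ‘CH8’ array.

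Of 30 potassium and sodium genes 1 was higher and 2 were lower, with a median of -0.19. Of 28 ammonium and nitrogen genes 2 were lower (median -0.29). Of 20 copper, magnesium and calcium genes 2 were lower (median -0.13). *HAK5*, a high-affinity potassium carrier, read 120 and 60.3 in ‘CH7’ against 12.4 and 14 in ‘CH8’ (-2.69, SE 0.60, limma adjusted p = 0.0398), and its relative *HAK23* 38 and 42.2 against 15.5 and 9.30 (-1.74, limma adjusted p = 0.0158). *HAK24*, of the same family, was higher, 9.36 and 7.91 against 19.1 and 24.1 (1.32, limma adjusted p = 0.0112). With log2(value + 16) the *HAK24* difference was 0.61 and that of *HAK23* -0.99. Both calls were lost on that scale, as was that of *HAK5*. *AMT3-3*, an ammonium transporter, read 51.1 and 44.0 against 7.48 and 5.53 (-2.88, SE 0.64, limma adjusted p = 0.0398), and *GLT2*, a glutamate synthase that takes up assimilated ammonium, 93.0 and 77.4 against 25.1 and 23.9 (-1.79, limma adjusted p = 0.0356). The lines did not overlap at any of these genes, which choosing genes by their call makes likely. Over all genes both ‘CH8’ arrays lay above both ‘CH7’ arrays at 24.1% and below them at 32.2%. Phosphate and sulphate genes were lower at 2 of 34, with a median of -0.04, the same as over all genes. *PHO1-3* read 46.2 and 28.6 against 9.37 and 11.8 (-1.79, limma adjusted p = 0.0438), and *PHT1-1* 37.1 and 25 against 11.9 and 13.5 (-1.26, limma adjusted p = 0.0336). *MRS2-C*, a magnesium transporter, read 56.8 and 51.5 against 22.1 and 24.2 (-1.23, SE 0.14, limma adjusted p = 0.00286), and *CAX1b*, a vacuolar calcium exchanger, 98.8 and 86.9 against 30.4 and 21 (-1.87, SE 0.32, limma adjusted p = 0.0164). Of the potassium calls 0, 0, 2 and 0 held without the respective arrays, of the ammonium and nitrogen calls and the phosphate calls none held, and of the copper, magnesium and calcium calls 1, 1, 2 and 1 held. Of 27 aquaporins 2 were higher and none lower, *TIP1-1* of the vacuole with 77.5 and 111 against 410 and 224 (1.71, limma adjusted p = 0.0337) and *PIP1-2* of the plasma membrane with 23.3 and 33.1 against 69.1 and 73.7 (1.36, limma adjusted p = 0.0303), and 0, 0, 0 and 1 calls held. The aquaporin differences ran from -3.25 to 1.71. At 6 of the 27 (22.2%, against 32.2% of all genes) both ‘CH8’ arrays lay below both ‘CH7’ arrays. None of 8 silicon and aluminium transport genes was called. Both ‘CH8’ arrays lay below both ‘CH7’ arrays at 6 of them (75%, against 32.2% of all genes).

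Of 24 flowering time and photoreceptor genes 3 were lower in ‘CH8’ and none higher, all 3 of them phototropins, and the median of the list was -0.07. Phototropins are the blue light receptors that steer bending, chloroplast movement and stomatal opening. *PHOT2* read 214 and 208 in ‘CH7’ and 98.6 and 91.2 in ‘CH8’ (-1.15, SE 0.13, limma adjusted p = 0.00254), with ‘CH9’ between them at 133 and 130. *PHOT1A* read 270 and 263 against 79.9 and 73.9 and *PHOT1B* 284 and 276 against 83.2 and 77.5 (-1.79 and -1.80, limma adjusted p = 0.0146 and 0.0175). The readings of this pair were so alike on every array that shared probe sequence cannot be told apart from expression of each copy. Of the 3 calls 1, 1, 3 and 1 held without the respective arrays, *PHOT2* each time. *HO2*, related to the heme oxygenase that makes the phytochrome pigment, read 48.9 and 44.9 against 16 and 13.7 (-1.66, SE 0.16, limma adjusted p = 0.00125), and its call held each time. The clock genes *PRR73* and *PRR95*, pseudo-response regulators, were higher, with 131 and 102 against 231 and 247 (1.05, limma adjusted p = 0.0135) and 52.2 and 40.3 against 112 and 106 (1.25, limma adjusted p = 0.0375), 2 of 8 clock genes. No source used here gives the hour of sampling. Of these 2 calls 1, 0, 1 and 0 held.

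Among 18 genes of light harvesting, electron transport and carbon fixation, 2 were lower and none higher, with a median of -0.35. *LIR1*, which tethers leaf ferredoxin-NADP reductase to the thylakoid, read 808 and 884 in ‘CH7’ and 399 and 226 in ‘CH8’ (-1.49, SE 0.27, limma adjusted p = 0.0186). *LFNR1*, that reductase, read 481 and 309 against 165 and 167 (-1.22, SE 0.24, limma adjusted p = 0.0271). The tether and its partner were thus lower together, and 0, 1, 1 and 0 of the calls held. The list summed to 3731 and 3409 in ‘CH7’, 2172 and 2537 in ‘CH8’ and 2668 and 3090 in ‘CH9’. Some genes of other lists or of none were also called lower, picked singly and not counted as a set. *catA* was the 1 call among 33 glutathione, ascorbate and superoxide genes, whose median was 0.10. In that list both ‘CH8’ arrays lay above both ‘CH7’ arrays at 13 genes (39.4%) and below at 8 (24.2%). Over all genes the shares were 24.1% and 32.2%. *GLO5*, a glycolate oxidase, read 587 and 506 against 249 and 135 (-1.57, SE 0.27, limma adjusted p = 0.0160), the catalase *catA* 113 and 123 against 26.4 and 32.3 (-2.02, SE 0.40, limma adjusted p = 0.0267) and *PEX11-4*, a gene of peroxisome division, 104 and 95.1 against 45.1 and 30.9 (-1.42, limma adjusted p = 0.0112). The *GLO5* call held only without the first ‘CH8’ array (adjusted p = 0.0043, against 0.0527 to 0.122 without the others), that of *PEX11-4* likewise (0.00971, against 0.0514 to 0.0937), and that of *catA* was lost each time. No gene of chlorophyll synthesis and breakdown was called among 22.

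Sugar metabolism was called in both directions. *SUS1*, a sucrose synthase that releases the precursor of cellulose from sucrose, read 47.0 and 30 in ‘CH7’ and 283 and 109 in ‘CH8’ (2.22, SE 0.48, limma adjusted p = 0.0352). *CIN1*, a cell wall invertase, read 120 and 108 against 247 and 547 (1.69, SE 0.38, limma adjusted p = 0.0431), and *CIN4*, of the same family, 20.2 and 23.5 against 7.53 and 7.59 (-1.53, limma adjusted p = 0.0330). *XA13*, the sucrose exporter *SWEET11* that *Xanthomonas* turns on, read 13.9 and 17.5 against 41.4 and 69.8 (1.78, SE 0.26, limma adjusted p = 0.0092), with ‘CH9’ at 15.6 and 15.4. Of the 4 sucrose calls 0, 1, 2 and 2 held. *FBP1*, the cytosolic fructose-1,6-bisphosphatase of sucrose synthesis, whose loss in rice stops tiller buds, read 76.3 and 56.7 against 21.3 and 15.2 (-1.87, SE 0.21, limma adjusted p = 0.00279) and kept its call each time. *FBPase*, of the same enzyme class, read 115 and 88.8 against 46.5 and 38.2 (-1.26, limma adjusted p = 0.0245). These were the 2 calls among 30 glycolysis and fermentation genes, whose median was -0.31, and 1, 1, 2 and 1 of them held. No gene was called among 29 of the TCA cycle and respiration or 16 of starch synthesis and breakdown.

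Defence genes gave scattered calls. The chitinases *Cht11* and *Cht6*, which cut fungal walls, were lower among 14, *Cht11* from 64.1 and 53.5 to 7.06 and 12.1 (-2.66, SE 0.34, limma adjusted p = 0.00485), and 0, 2, 1 and 2 calls held. *NH1*, the rice counterpart of the salicylic acid receptor *NPR1*, read 168 and 140 against 51.3 and 58.4 (-1.49, SE 0.24, limma adjusted p = 0.0135). *HIRL1*, of a family induced in the hypersensitive reaction, read 482 and 411 against 205 and 154 (-1.33, limma adjusted p = 0.0225). With *XA13* these were the calls among 36 immune receptors and regulators of cell death, and 0, 2, 2 and 1 of them held. *AGO18*, an antiviral Argonaute, read 80.4 and 44.5 against 8.91 and 15.7 (-2.34, SE 0.44, limma adjusted p = 0.0230) and held only without the second array of either line. Of 28 RNA interference genes it was the 1 called lower. The Argonaute gene *AGO1D* was the 1 called higher, with 73.5 and 66.4 against 196 and 143 (1.26, limma adjusted p = 0.049). The germin-like and thaumatin-like genes *GER4*, *GER8* and *OsTLP5* were higher by 1.90, 1.43 and 1.04 among 23 pathogenesis-related genes, with 1, 0, 0 and 1 calls held. With log2(value + 16) the difference of *GER8* was 0.34. No diterpenoid phytoalexin gene of 21 was called, and *CPS4*, a diterpene cyclase gene, read 51.5 and 23.2 against 8.11 and 8.52 (-2.06, limma adjusted p = 0.0617).

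The traits that name these varieties could be set beside single genes. Both lines are aromatic. *BADH2*, the aldehyde dehydrogenase whose loss lets the rice aroma compound accumulate, read 85.7 and 97.9 in ‘CH7’ and 26.1 and 28.4 in ‘CH8’ (-1.75, SE 0.22, limma adjusted p = 0.00524). ‘CH9’, not described as aromatic, read 102 and 84.4, like ‘CH7’ and apart from ‘CH8’ (limma adjusted p = 0.00827). *P5CS*, which makes a proline precursor that also feeds the aroma compound, read 86.1 and 155 against 335 and 439 (1.73, SE 0.30, limma adjusted p = 0.0168). Of these calls that of *BADH2* held without each of the 4 arrays, and that of *P5CS* was lost without the first ‘CH7’ (adjusted p = 0.108) or the second ‘CH8’ array (0.0929). *WX1*, the granule-bound starch synthase that waxy rice lacks in grain, was near the lowest readings in both lines, at 4.06 and 4.37 against 4.22 and 4.35. The flavonoid genes *CHS* and *CHI* read 84.6 and 37.0 against 32.0 and 82.5 and 26.5 and 21.3 against 22.2 and 56.9, with overlapping lines (limma adjusted p = 0.943 and 0.518), and none of the 4 flavonoid genes measured was called. The anthocyanin regulators were not analysed here.

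Of 92 gene lists, 59 had at least 1 called member and 33 had none. With 2.82% of all genes called higher and 2.68% lower, no call in a short list differs little from the share over all genes. Lists without a call included 26 endoplasmic reticulum folding proteins (median -0.33) and 16 small heat shock and Clp chaperones (median -0.37). So did 23 heat shock factors and 26 ribosomal proteins (median -0.20). Of the folding proteins 17 (65.4%) were below on both arrays, against 32.2% of all genes. Of 18 proteasome subunits *PAE1* was called, with 75.8 and 85.9 in ‘CH7’ against 293 and 254 in ‘CH8’ (1.76, SE 0.16, limma adjusted p = 0.0011). ‘CH9’ read 71.3 and 71.2, and the call held without each of the 4 arrays. Among the largest differences outside the lists were *IPS*, which makes inositol phosphate from glucose phosphate (27.1 and 35.3 against 123 and 164, difference 2.20, limma adjusted p = 0.00652) and *OsITPK3*, an inositol phosphate kinase further along the same route (174 and 212 against 43.0 and 37.9, -2.25, limma adjusted p = 0.00749). The first step of that route was higher and a later one lower. The *IPS* call was lost without the first ‘CH7’ array (adjusted p = 0.0682) and that of *OsITPK3* without the first or second (0.0505 and 0.0509).

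Organ and stage markers were compared because whole plants can differ in their parts. The root-enriched list of 19 genes summed to 477 and 531 in ‘CH7’ and 729 and 475 in ‘CH8’, and 9 of its genes were near the lowest readings on every parent array. Flower and panicle genes summed to between 131 and 150 on the 6 parent arrays, with 18 of 22 near the lowest readings. Endosperm and seed genes summed to 408 and 386 against 323 and 487 (10 of 16 near the lowest readings) and senescence genes to 1251 and 1648 against 1499 and 1964 (3 of 8). Thus the root sum was highest on the first ‘CH8’ array, where the expansin sum was highest too, and the seed and senescence sums on the second. The part of these markers in the differences between the lines was not tested.

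Many of the largest differences were in genes without a name. *LOC4346790*, on chromosome 9, read 394 and 382 in ‘CH7’ and 2.46 and 3.35 in ‘CH8’ (-7.08, SE 0.57, limma adjusted p = 0.000588). Its ‘CH8’ readings were near the lowest on the arrays, so the size of the difference depended on the scale, and it was -4.42 with log2(value + 16). *LOC4327631* on chromosome 1 rose from 12.3 and 13.8 to 609 and 481 (5.38, SE 0.65, limma adjusted p = 0.00401). *LOC4336982* on chromosome 4 rose from 9.58 and 18.6 to 584 and 510 (5.35, SE 0.43, limma adjusted p = 0.000588). All 3 kept their calls without each of the 4 arrays. To describe genes read in only 1 line, those below an intensity of 8 on both arrays of a line and above 64 on both of the other were counted, with borders chosen after values were seen. There were 12 such genes near the lowest readings in ‘CH8’, all called, and 8 in ‘CH7’, of which all but *RAB21*, a dehydrin, were called (3.70 and 4.23 against 83.7 and 70.4, difference 4.28, limma adjusted p = 0.0559). Of the 12, ‘CH9’ was above 64 on both arrays at 4 and below 8 on both at 1, *LOC4331350* (151 and 154 in ‘CH7’, 6.96 and 5.61 in ‘CH8’, 5.66 and 5.61 in ‘CH9’). *LOC4341142* showed the opposite, with 165 and 164 in ‘CH7’, 4.77 and 4.69 in ‘CH8’ and 147 and 149 in ‘CH9’. Of the 8, ‘CH9’ was below 8 on both arrays at 2 and above 64 on both at none. Of the 12 calls 9, 10, 12 and 10 held without the respective arrays of ‘CH7’ and ‘CH8’, and of the 7 calls 5, 5, 6 and 5.

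Calls lay on all 12 chromosomes. Chromosome 11 had the largest share of genes lower in ‘CH8’, 66 of 1377 (4.79%), followed by chromosome 12 with 3.86%, against 2.68% over all genes. The smallest was that of chromosome 3, 1.64%. Chromosomes 11 and 12 also had the lowest median intensities, 12.3 and 18.3, against 24.5 over all genes. The part of intensity in these shares was not tested. Shares of genes higher in ‘CH8’ ran from 2% on chromosome 8 to 3.34% on chromosome 5, and chromosome 11 lay at 3.27%. The high share of lower genes on chromosome 11 also appeared with fewer arrays, though at other levels and in fits that reuse the same arrays. It was 1.23% without the first ‘CH7’ array, 2.11% without the second, 3.12% without the first ‘CH8’ array and 2.32% without the second, against 0.39%, 1.18%, 1.96% and 0.743% over all genes in the same fits. In these 4 fits chromosome 11 also had the largest share of genes higher in ‘CH8’, at 1.45%, 1.89%, 4.21% and 2.03% against 0.575%, 1.2%, 2.87% and 1.56% over all genes.

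**Figure D4:**
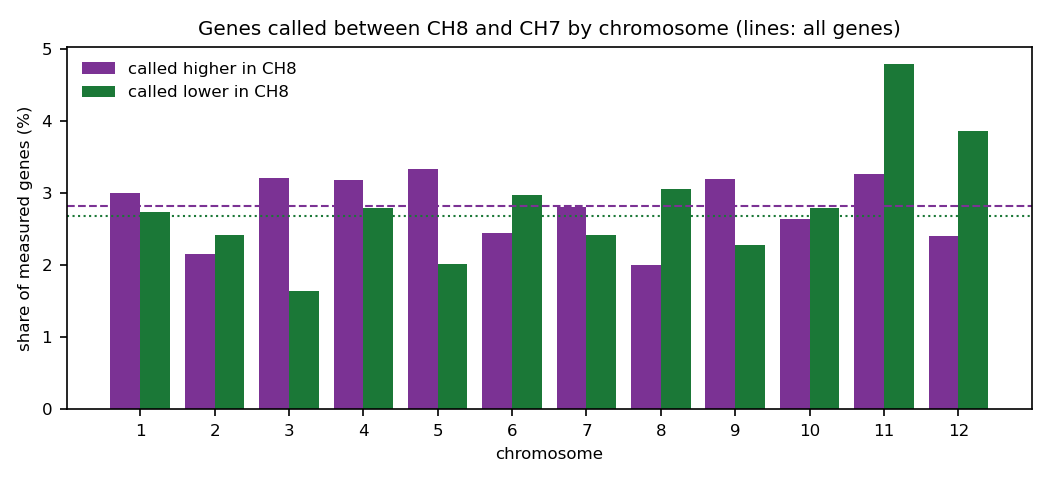
Share of the measured genes (vertical axis, %) called higher (purple) or lower (green) in ‘CH8’ than in ‘CH7’ on each chromosome (horizontal axis), with lines at the shares over all genes, 2.82% (dashed) and 2.68% (dotted). The tallest bar is that of genes lower in ‘CH8’ on chromosome 11, 4.79%.

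Neighbouring genes were sometimes called together. In the RefSeq order of assembly ASM3414082v1 there were 12 runs of at least 3 neighbouring measured genes called in 1 direction, 9 lower in ‘CH8’ and 3 higher. The longest held 4 genes on chromosome 11. In it *LOC9270219* read 498 and 402 in ‘CH7’, 4.67 and 3.76 in ‘CH8’ and 402 and 383 in ‘CH9’ (-6.74, SE 0.18, limma adjusted p = 2.87e-06), and *LOC9271826* next to it read 72.3 and 62.9, then 3.13 on both ‘CH8’ arrays, then 3.56 and 3.54 in ‘CH9’ (-4.43, SE 0.18, limma adjusted p = 8.64e-06). ‘CH9’ thus went with ‘CH7’ at the first of these neighbours and with ‘CH8’ at the second. Both calls held without each of the 4 arrays. The outer genes *LOC9267561* and *LOC9267407* were lower by -2.93 and -1.50. A run on chromosome 2 held *LOC4330063*, *LOC9271506* and *LOC9267263* (-4.80, -3.64 and -2.92), and a run on chromosome 6 held *LOC4341380*, *LOC9268915* and *LOC4341383* (-2.96, -3.81 and -2.95). These 2 had the largest mean absolute difference among the 11 runs of 3 genes. The next by that measure, on chromosome 5, held *LOC4338021*, *LOC9269151* and *LOC4338023*, all higher in ‘CH8’ (2.57, 3.25 and 3.36). A run on chromosome 7 held the receptor-like kinases *CRK6* and *CRK10* (-1.22 and -1.99), which may share probe sequence as members of 1 family. In windows of 20 neighbouring genes the largest number lower in ‘CH8’ was 8, in 5 overlapping windows of chromosome 11 (0.0212% of 23608 windows), and the largest number higher was 6, on chromosome 5. The number of runs fell to 0 and 3 without the first and second ‘CH7’ array and to 4 and 3 without the first and second ‘CH8’ array.

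The third parent was used to ask which line departed. At each gene called between ‘CH8’ and ‘CH7’ the mean of ‘CH9’ was placed on a scale from 0, the ‘CH7’ level, to 1, the ‘CH8’ level. The median position was 0.49 over the 673 genes higher in ‘CH8’ and 0.47 over the 639 lower. Among the higher genes ‘CH9’ lay in the part of the span nearest ‘CH7’, of 3 equal parts, at 208 (30.9%), in the middle at 310 (46.1%) and near ‘CH8’ at 155 (23%). For the lower genes the counts were 195 (30.5%), 290 (45.4%) and 154 (24.1%). In neither direction did most genes lie on the side of 1 parent. Choosing genes by a large gap between ‘CH7’ and ‘CH8’ tends to overstate that gap, which moves ‘CH9’ towards the middle. How much of the middle share comes from this was not tested. The median over both directions, 0.48, moved to 0.57 without the second ‘CH7’ array and to 0.30 and 0.44 without the first and second ‘CH8’ array, and the ‘CH9’ arrays taken singly gave 0.45 and 0.50. In the ‘CH9’ comparisons 206 probe sets were called against ‘CH7’ (0.169% higher and 0.206% lower) and 322 against ‘CH8’ (0.302% and 0.284%), compared with 1.59% higher and 2.1% lower between ‘CH8’ and ‘CH7’. Against the mean of both parents, 152 probe sets were called (0.137% higher and 0.14% lower). These comparisons share arrays with that of ‘CH8’ and ‘CH7’. Without the first ‘CH7’ array the count against ‘CH7’ was 67, without the second it was 83, and without either ‘CH7/8’ array it was 384. The count against ‘CH8’ was 581 without the first ‘CH8’ array. Leaving out the first or second ‘CH9’ array gave 60 and 111 against ‘CH7’ and 155 and 202 against ‘CH8’.

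**Figure D5:**
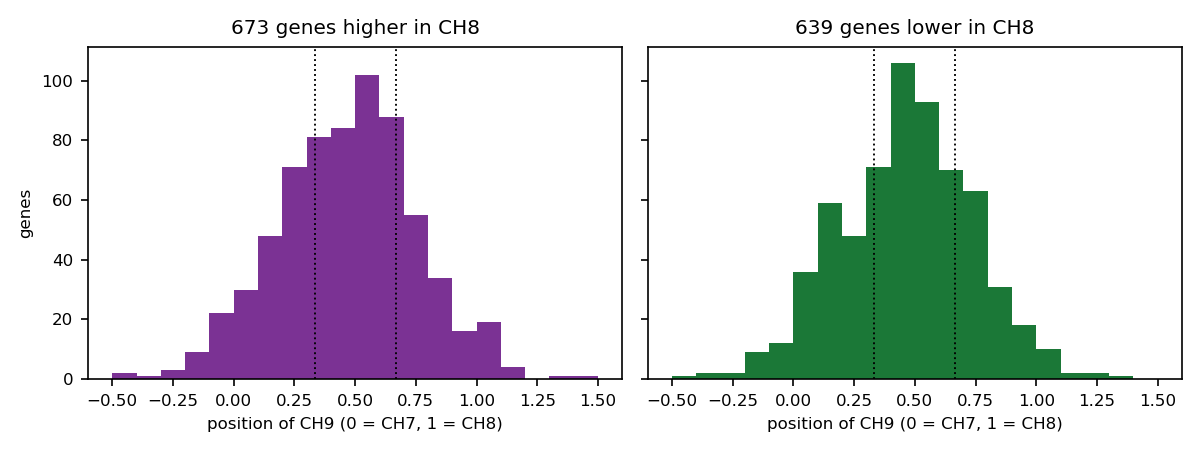
Position of ‘CH9’ between ‘CH7’ (0) and ‘CH8’ (1) on the log2 scale (horizontal axis) for the 673 genes higher (left, purple) and the 639 lower (right, green) in ‘CH8’, as numbers of genes (vertical axis), with dotted lines at the borders of the 3 equal parts. In both panels the middle part holds the most genes, 310 and 290.

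By group, the position of ‘CH9’ varied. At the 7 cellulose synthases that were higher in ‘CH8’ the median position was 0.68, and none of the 7 lay near ‘CH7’. *CESA8* read 170 and 149 in ‘CH9’ and *CESA1* 302 and 285, and both differed from ‘CH7’ (limma adjusted p = 0.0135 and 0.0295) while the differences from ‘CH8’ were -0.41 and -0.28 (limma adjusted p = 0.672 and 0.842). The 4 kinesins had a median of 0.65 and the 5 xylan genes 0.59. At the 8 auxin signalling genes the median was 0.23, with 5 near ‘CH7’, and at the 11 ABA signalling genes 0.38. Examples of genes at which ‘CH9’ differed from ‘CH8’ and had a position between -0.10 and 0.18 were *IAA3*, *SPL2*, *PAE1*, *XA13*, *BADH2*, *NAAT1*, *HO2* and *FBP1* (limma adjusted p from 0.000736 to 0.0187). Examples of genes at which it differed from ‘CH7’ and had a position between 0.81 and 0.90 were *CESA1*, *CESA8*, *CIPK33* and *RS2* (limma adjusted p from 0.00232 to 0.0327). Whether the groups of genes differed in position was not tested.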

How the data were processed

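The authors hybridised whole-plant RNA to Affymetrix GeneChip arrays, and deposited 1 table of linear intensity values, from 1.58 to 4035 with array medians of 10.9 to 12.4. The methods name RMA with quantile normalization and background subtraction, while the submitters' processing notes name MAS5, so the algorithm behind the deposited intensities is unknown here. Depth has no meaning for arrays. Their number, 2 a line, limits the precision. The methods state 3 replicates a line, and 2 were analysed here.

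Values were taken to log2 with no pseudocount and fitted with limma 3.58.1 in R 4.3.3, a mean per line over 12 arrays (6 residual degrees of freedom), eBayes and Benjamini-Hochberg adjustment. SAM was not run, since 2 against 2 arrays allow too few permutations. The fit was tested on simulated data for ‘CH8’ against ‘CH7’ over 54922 probe sets. Of 100 changes of 4-fold 74 were recovered, and of 100 of 2-fold 30, and 4 unchanged probe sets were called. The simulated noise was normal and independent, with 1 spread per probe set for all lines. In the data the replicate SD on the log2 scale was 0.361 in ‘CH8’ and 0.267 in ‘CH7’. The simulated counts therefore do not give the error rate of the real comparison.

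Genes came from the platform annotation and the RefSeq table of assembly ASM3414082v1, which matched 24079 of the probe sets. Probe sets with several genes (95) or none (30747) were left out of gene counts. The brightest probe set stood for a gene. The comparison and its 92 gene lists (2073 genes) were chosen with earlier results of these data known, and lists were refined on gene symbols. Named were, for each list, up to 6 called members a direction or, with fewer than 2 calls, up to 2 of the highest mean; outside the lists the 10 named and 5 unnamed called genes with the largest difference a direction; the 3 longest runs, ties ordered by the larger mean absolute difference; and *BADH2*, *WX1* and actin. Alternatives were normalization, dim probe sets, a pseudocount of 16, the arrays fitted, weights, a replicate block, fold minimums and leaving out each array. No sequence was analysed here. Replicate numbers were not used to pair ‘CH7’ and ‘CH8’ arrays, except in the replicate block.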

Additional observations from a re-analysis of the deposited data

How the results depend on the processing

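With log2(value + 16) the probe sets called in ‘CH8’ against ‘CH7’ numbered 796 in place of 2024, with 316 genes higher and 267 lower, 3 runs of neighbouring genes, and 84, 160 and 62 probe sets for ‘CH9’ against ‘CH7’, ‘CH8’ and their mean (206, 322 and 152 in the fit reported). In a fit of only the 4 arrays of these lines the counts were 1171, 360 and 365 with 6 runs. At least 4-fold left 704, 288 and 178, 4 runs, and 97, 189 and 70. Leaving out dim probe sets gave 4 runs. Array weights gave 762 for ‘CH9’ against ‘CH7’ and 260 against the mean. Quantile normalization raised the share of higher calls from 43.1% to 52.5%. Leaving out 1 array at a time, the probe sets called ranged from 393 to 2533, genes higher from 137 to 846 and lower from 93 to 825, runs from 0 to 16, the 3 ‘CH9’ counts from 60 to 384, 155 to 581 and 46 to 219, and the median position of ‘CH9’ from 0.30 to 0.57. With the replicate number as a replicate block, 1849 probe sets were called (656 genes higher, 588 lower, 8 runs) and the ‘CH9’ counts were 144, 303 and 138. The correlation of deviations of same-numbered ‘CH7’ and ‘CH8’ arrays was 0.0579, so the arrays share only a number. Of the 170 called genes named by rule, 26 kept their call in every alternative but the 4-fold minimum, 161 under quantile normalization and 97 with log2(value + 16), and no sign changed. The cause of these shifts was not tested. The unchanged signs are no separate support, since leaving out an array could not reverse a gene at which the lines did not overlap.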
